A study of Drosophila melanogaster with 19 samples.

Results

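The comparison described here asked what the B isoform of nubbin (nub) does to transcripts outside the gut when it is overexpressed in adult flies. It set 4 arrays of c564>nub-RB rest against 3 arrays of c564>+ rest, where "rest" is the body of the fly after the gut and the head had been removed. All flies were Drosophila melanogaster females aged 10 days. Flies of the first group carried the c564-Gal4 driver and a UAS-nub-RB transgene in a w background, and the control flies, labelled w1118, carried the driver without a UAS transgene (the labels of the control spell it c546-Gal4). Each array held RNA from a separate pool of dissected flies. Gal4 is a yeast activator that switches on any gene placed behind UAS sites, and c564-Gal4 is an enhancer-trap line active in the fat body, the midgut and some other tissues, so the transgene is not confined to one cell type. The driver was active without temporal control, and 1 transgene line stood for the overexpression. The series holds 19 arrays in all. Of the others, c564>nub-RB gut (3 arrays), c564>+ gut (3) and c564>Pdm2-RB rest (3) are used below for comparison, and the last of these carried another UAS transgene, Pdm2-RB, under the same driver.

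nub encodes a pair of POU-domain transcription factors, Nub-PB and Nub-PD, that are read from separate promoters and share the DNA-binding C-terminal part. In the fly, microbes in the hemolymph are met by antimicrobial peptides (AMPs) that the fat body, the functional counterpart of the liver, secretes under control of the Toll and IMD pathways and their NF-kB factors. Hemocytes, the blood cells, engulf particles through receptors such as the Nimrods and carry the prophenoloxidases of the melanization reaction. The body without gut and head therefore holds the main sources of systemic immune transcripts, next to muscle, epidermis, ovary, Malpighian tubules and heart.

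Signals are linear, quantile-normalized spot intensities, and the values of an array group are always given in the order c564>nub-RB arrays 1, 2, 3 and 4 and c564>+ arrays 1, 3 and 4. Changes are differences of mean log2 signals, c564>nub-RB minus c564>+, with the standard error (SE) of limma, a linear model that moderates the variance of each probe across all probes. A probe was tested when its mean signal was above 130 in at least 1 of the 2 groups, which held for 16492 of the 32162 probes on the array. The lowest probe tested had a mean just above 130 in its brighter group and the highest that was left out had 129.98. A transcript is said to have risen or fallen when its p-value, adjusted over all 16492 probes by the Benjamini-Hochberg method, was at or below a false discovery rate of 1%. Only 1441 probes could be given a gene symbol, largely through the study's own lists of changed transcripts. Named genes are therefore weighted towards those that moved, and the share of a list that rose says nothing of those of its genes that stay unnamed.

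The share of probes well above background ran from 65.17% to 83.51% over the body arrays, no spot was saturated, and the arrays lay on slides scanned on 2 days, with c564>nub-RB array 2 and c564>+ array 4 on the first. The dissected bodies showed transcripts of body tissues. The signals of 3 flight muscle genes (Act88F, fln and TpnC4) summed to 29444 to 89247 on the c564>nub-RB arrays, to 3413 to 18650 on the control arrays and to 52 to 90 on the 6 gut arrays of these genotypes. None of the 3 passed the test between the bodies, with a median log2 change of 2.46. Midgut transcripts were also present in some bodies. Over 20 trypsin and Jonah protease genes of the midgut, the signals summed to 456729 to 1179953 on the control arrays and to 3128 to 393359 on the c564>nub-RB arrays, against 4611759 to 5468879 on the gut arrays. Of the c564>nub-RB arrays, 1 and 4 were high and 2 and 3 low in this sum. The 2 photoreceptor genes with a symbol, trpl and Arr1, overlapped between the groups. Of the 14 male markers looked for, 3 had a probe with a symbol, and none of these passed the signal threshold. None of the 17 ovary markers looked for has a symbol here, so they were not measured. As the arrays read RNA of whole bodies, fewer cells of a type and less RNA per cell cannot be told apart.

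The transgene's own gene was dim in the body. All 5 nub probes lay below the threshold and were not part of the fit. Probe A_09_P161260 had signals of 36.6, 40.3, 42 and 31.3 in c564>nub-RB and of 13.9, 3.98 and 10.4 in c564>+, and probe A_09_P196920 had 39.9, 40.1, 32.7 and 33.6 against 12.1, 20.6 and 10.9. On these probes and on A_09_P048246 the groups did not overlap, with log2 differences of 2.17, 1.38 and 2.88 (two-sided exact permutation test of 4 against 3 arrays, p = 0.0286 for each, the smallest that 35 assignments allow, and 0.0477 after adjustment over the 5 probes). The control values of A_09_P161260 and A_09_P048246 were well above background on 2 and on 1 of 3 arrays only. Probe A_09_P004151 overlapped, with 56.7, 84.8, 80.1 and 99.6 against 74, 54.6 and 127, and the fifth probe stayed within background on all body arrays. Where these probes lie relative to the transgene's coding sequence was not checked here, so their signals are no measure of how strongly it was expressed.

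Many transcripts differed between the c564>nub-RB and c564>+ bodies, and most of those called were higher in c564>nub-RB. Of the 16492 probes tested, 710 were called (4.31%), 560 of them higher (3.40%) and 150 lower (0.910%), so that 78.9% of the called probes were higher. The rises were also steeper than the falls. Among the risen probes 492 changed at least 2-fold, 205 at least 4-fold, 61 at least 16-fold and 33 at least 64-fold, and among the fallen ones 95, 33, 11 and 4 did. The median risen probe was 3.26-fold higher (log2 1.70) and the median fallen one 2.14-fold lower (log2 -1.10), while the median of all tested probes was -0.05 on the log2 scale. Every called probe had groups that did not overlap. The probes were chosen by a test on these same arrays, so this adds nothing to the calls. The size of the rise differed between the 4 c564>nub-RB arrays. Each of them lay on a different slide and array 2 alone was scanned on the first day. Pool, slide and scan day therefore cannot be told apart here. Array 2 was the furthest from the control mean for 279 of the risen probes, array 4 for 183, array 1 for 67 and array 3 for 31, and the medians over the risen probes were 1.91, 1.85, 1.57 and 1.47 in that order. The fallen probes showed less of this spread, with medians between -1.13 and -1.03. Leaving out c564>+ array 1 reduced the calls to 211 and leaving out c564>nub-RB array 1 to 545. Between these, the calls fell to 251 without c564>+ array 4, 298 without c564>nub-RB array 4, 323 without c564>+ array 3, 368 without c564>nub-RB array 2 and 436 without c564>nub-RB array 3.

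**Figure D1:**
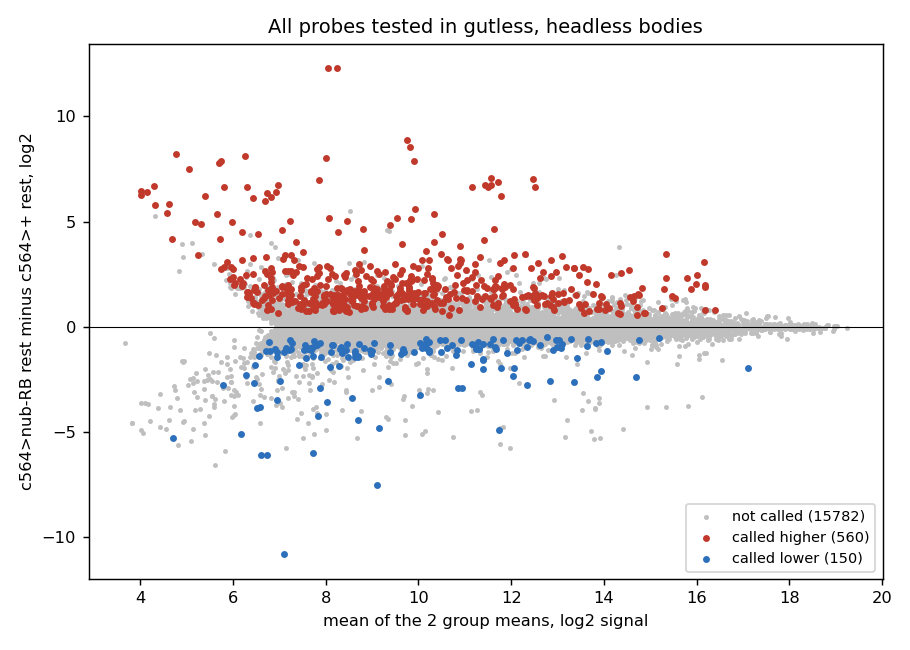
Change of every tested probe in the body (y axis, difference of mean log2 signals, c564>nub-RB minus c564>+) against its mean level (x axis, mean of the 2 group means, log2 signal). Grey points are probes that were not called, red points the 560 that rose and blue points the 150 that fell at a false discovery rate of 1%, and the red points reach further from 0 than most of the blue ones.

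At the top of the distribution, transcripts went from background to high signals, and AMP genes stood beside genes with no immune annotation in the tables used. Probe A_09_P006821, which has no symbol here, had signals of 30298, 19368, 18028 and 20179 in c564>nub-RB and of 2.26, 4.11 and 8.48 in c564>+ (log2 fold change 12.29, SE 0.43, adjusted p = 1.20e-05), and the control was well above background on 1 of 3 arrays. Oat, ornithine aminotransferase, an enzyme of ornithine and proline metabolism, had 18579, 16116, 16116 and 25826 against 4.6, 2.2 and 5.26 on its brighter probe (log2 fold change 12.29, SE 0.32, adjusted p = 3.56e-06). The control of the brighter probe was well above background on 1 of 3 arrays. The other Oat probe rose by 1.49 only, so the probes of this gene disagreed about the size. CG31813 (nur) had 15050, 21710, 14077 and 20418 against 40, 45.9 and 53.5 (log2 fold change 8.57, SE 0.19, adjusted p = 1.84e-06). In these 3 cases the spread between replicates was small next to the change, and the groups stood orders of magnitude apart.

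Several other transcripts among the 12 highest were not well above background on any control array, so only a lower bound can be given. CG6639 (SPH93), a serine protease homolog, was at least 170-fold higher, with 1176, 4776, 259 and 1808 in c564>nub-RB (adjusted p = 0.00237). CG14265 was at least 108-fold higher (741, 482, 935 and 1298, adjusted p = 3.60e-05) and ImpL1, an ecdysone-inducible gene, at least 103-fold (1191, 1356, 421 and 514, adjusted p = 0.000149). CG32551 was at least 62.9-fold and at least 58.9-fold higher on its 2 probes, and on both its signals in arrays 3 and 4 were above those in arrays 1 and 2. In CG6639 array 2 was the highest and array 3 the lowest. Probe A_09_P161510, without a symbol, had the order of arrays seen in Dpt below, with 5060, 18396, 1164 and 2848 against 13.5, 18.6 and 15.9 (log2 fold change 8.05, SE 0.83, adjusted p = 0.00186). The AMP genes Dpt and DptB and the immune-induced peptide IM18 made up the rest of the 12.

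Among the lowest transcripts, Su(P) and mthl8 fell to background in all 4 pools. Su(P) had 3.43, 1.89, 3.62 and 4.76 in c564>nub-RB and 5843, 5634 and 6065 in c564>+. Since no c564>nub-RB array measured it well above background, it was at least 601-fold lower (adjusted p = 3.56e-06). Aats-asp, aspartyl-tRNA synthetase, had 46.2, 39, 45.2 and 34.4 against 8196, 7611 and 6899 (log2 fold change -7.53, SE 0.13, adjusted p = 1.47e-06). Dhpr, dihydropteridine reductase, which regenerates the biopterin cofactor of the aromatic amino acid hydroxylases, had 8.22, 8.79, 12.5 and 32 against 547, 1362 and 883 (log2 fold change -6.06, SE 0.52, adjusted p = 0.000911). mthl8, a Methuselah-like G protein-coupled receptor, was at least 16.6-fold lower, with 4.07, 3.31, 3.7 and 6.06 against 147, 147 and 194 (adjusted p = 3.43e-05). No group overlapped in any of these genes.

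CG8768 was read by 3 probes that all fell but by different amounts. The log2 changes were -4.80 and -4.44 on the probes with the larger change, with 93.8, 89, 86.7 and 84.1 against 1808, 2055 and 1878 on the second of these, and -1.05 on the third (624, 614, 542 and 500 against 923, 1452 and 1198, adjusted p = 0.00996). The other 6 of the 12 lowest probes have no symbol here. They fell by 3.87 to 6.10 on the log2 scale, and A_09_P022576 had 414, 784, 608 and 769 against 18211, 19590 and 18009. Fallen probes could be named far less often than risen ones, 23 of 150 (18 genes) against 348 of 560 (277 genes), so the lowered side is described mostly by its probes.

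**Figure D2:**
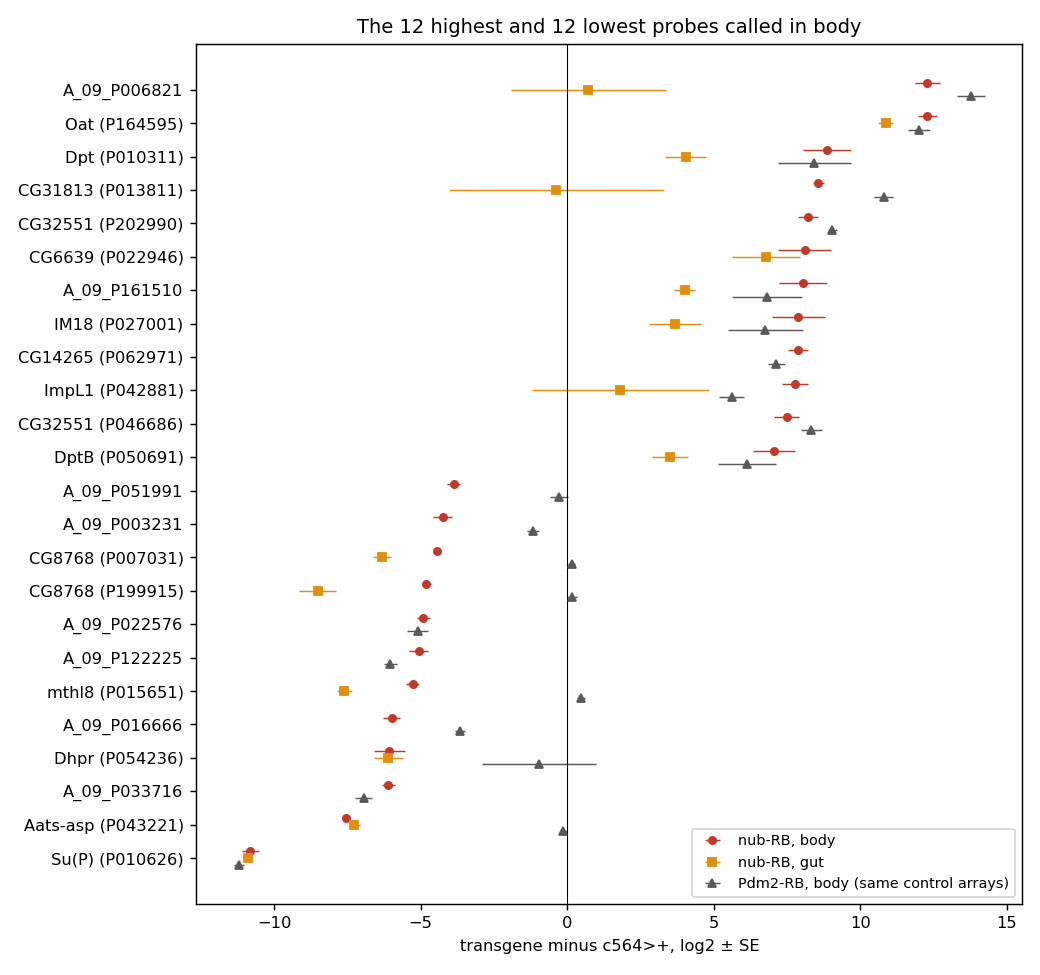
The 12 called probes with the highest and the 12 with the lowest change in the body, each with its log2 change ± SE (x axis) in c564>nub-RB rest against c564>+ rest, in c564>nub-RB gut against c564>+ gut and in c564>Pdm2-RB rest against the same c564>+ rest arrays. The brighter Oat probe and Su(P) lie far from 0 in all 3 comparisons, and Aats-asp and mthl8 lie near 0 in c564>Pdm2-RB. Probes without a gut point were below the signal threshold there. Points of genes given as "at least" folds in the text rest on arrays at background and are not measured sizes.

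The AMP genes as a group had the steepest rise of the lists that were looked at. Of 15 AMP genes tested, 10 rose and none fell, and all 15 had a positive log2 change with a median of 6.22. Such counts are to be read against all 851 tested probes with a symbol, of which 40.9% rose and 2.7% fell. The shares of the recognition, Toll cascade, melanization, fat body and cytochrome P450 genes given below lie near that of all named probes and are no result about those lists. Diptericins act on Gram-negative bacteria, and Dpt had the largest change of the AMP genes. Dpt (DptA) had signals of 32813, 63755, 4973 and 11549 in c564>nub-RB and of 34.6, 43.3 and 43.2 in c564>+ (log2 fold change 8.86, SE 0.81, adjusted p = 0.00117). DptB had 57379, 113068, 11900 and 22380 against 272, 336 and 321 (log2 fold change 6.88, SE 0.72, adjusted p = 0.00189), and its other probe gave 7.06. In both genes array 2 was the highest and array 3 the lowest of the c564>nub-RB group, yet even the lowest of them stood far above every control array.

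Of the attacins, glycine-rich peptides against Gram-negative bacteria, 3 of 4 rose. AttC had 67072, 159206, 36594 and 47013 against 483, 530 and 472 (log2 fold change 7.05, SE 0.46, adjusted p = 0.000337), AttA had 48305, 153289, 32116 and 46849 against 412, 720 and 667 (log2 fold change 6.63, SE 0.52, adjusted p = 0.000625) and AttB had 29507, 62392, 11549 and 12761 against 144, 274 and 304 (log2 fold change 6.64, SE 0.61, adjusted p = 0.00121). AttD had between 48.6 and 562 in c564>nub-RB against 10, 6.22 and 10.8 and did not pass the test (log2 3.98, SE 0.75, adjusted p = 0.017). AttA and AttB are near-identical neighbours, so probes for one may also read the other.

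Cecropins, which lyse bacterial membranes, had low signals in the control and higher ones in c564>nub-RB, and CecC and CecA2 passed the test. CecC had 382, 641, 230 and 311 against 3.03, 4.12 and 9.33 (log2 fold change 6.22, SE 0.46, adjusted p = 0.000514), where the control was well above background on 1 array. CecA2 had 1237, 3909, 579 and 320 against 6.87, 17.7 and 13.1 (log2 fold change 6.38, SE 0.82, adjusted p = 0.00416). CecA1, with 3002, 12892, 1062 and 968 against 30.1, 79.3 and 66.9, lay just outside the threshold (log2 5.53, SE 0.91, adjusted p = 0.01), although its groups did not overlap. CecB stayed below the signal threshold, with 57.8, 152, 54.2 and 32.6 against 1.48, 1.77 and 3.48 on its brighter probe. The 3 larger cecropin signals had a common order, array 2 before array 1 before the other two.

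Among the antifungal peptides, Mtk (Metchnikowin) had 30922, 98899, 12857 and 24753 against 259, 327 and 302 (log2 fold change 6.74, SE 0.61, adjusted p = 0.00117). Drs (Drosomycin), the standard readout of Toll signalling, varied within the control, with 64258, 217117, 51632 and 47696 against 9342, 1063 and 16481. It did not pass the test (log2 3.81, SE 0.98, adjusted p = 0.045), and c564>+ array 3 was the one far below the others. The midgut proteases had the same control order, and Drs was bright in c564>+ gut, with a mean log2 signal of 17.69. The part of gut tissue in the Drs values was not tested. Of the Drosomycin-like genes, dro5 (Drsl5) rose (19306, 22070, 14946 and 19471 against 4910, 6515 and 4661, log2 fold change 1.82, SE 0.17, adjusted p = 0.00136) and so did dro4 (Drsl4, log2 fold change 1.97, SE 0.30, adjusted p = 0.00802). dro3 (Drsl3) had 191, 108, 126 and 162 against 35.4, 47.9 and 12.9 and did not pass (adjusted p = 0.017), and Dro2 (Drsl2), whose signals were 50.2, 75.7, 53.3 and 51.5 against 24.4, 34.2 and 59.2, overlapped below the signal threshold. Def (Defensin), which acts on Gram-positive bacteria, had 2780, 12723, 1108 and 2057 against 594, 339 and 442 and did not pass either (adjusted p = 0.055).

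Summed over the 15 genes, the AMP signals were 182061 to 923095 on the c564>nub-RB arrays and 11205 to 24199 on the control arrays. Array 2 had the highest sum and array 3 the lowest of the c564>nub-RB group. Dpt, AttA, AttB, AttC, CecC, Mtk and dro5 stayed called whichever single array was left out. DptB lost its call without c564>+ array 1 (adjusted p = 0.012) or array 4 (adjusted p = 0.010). CecA2 lost it without c564>nub-RB array 1 or 3 or any 1 of the control arrays (adjusted p up to 0.022), and dro4 without any array but c564>+ array 4 (adjusted p up to 0.029).

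**Figure D3:**
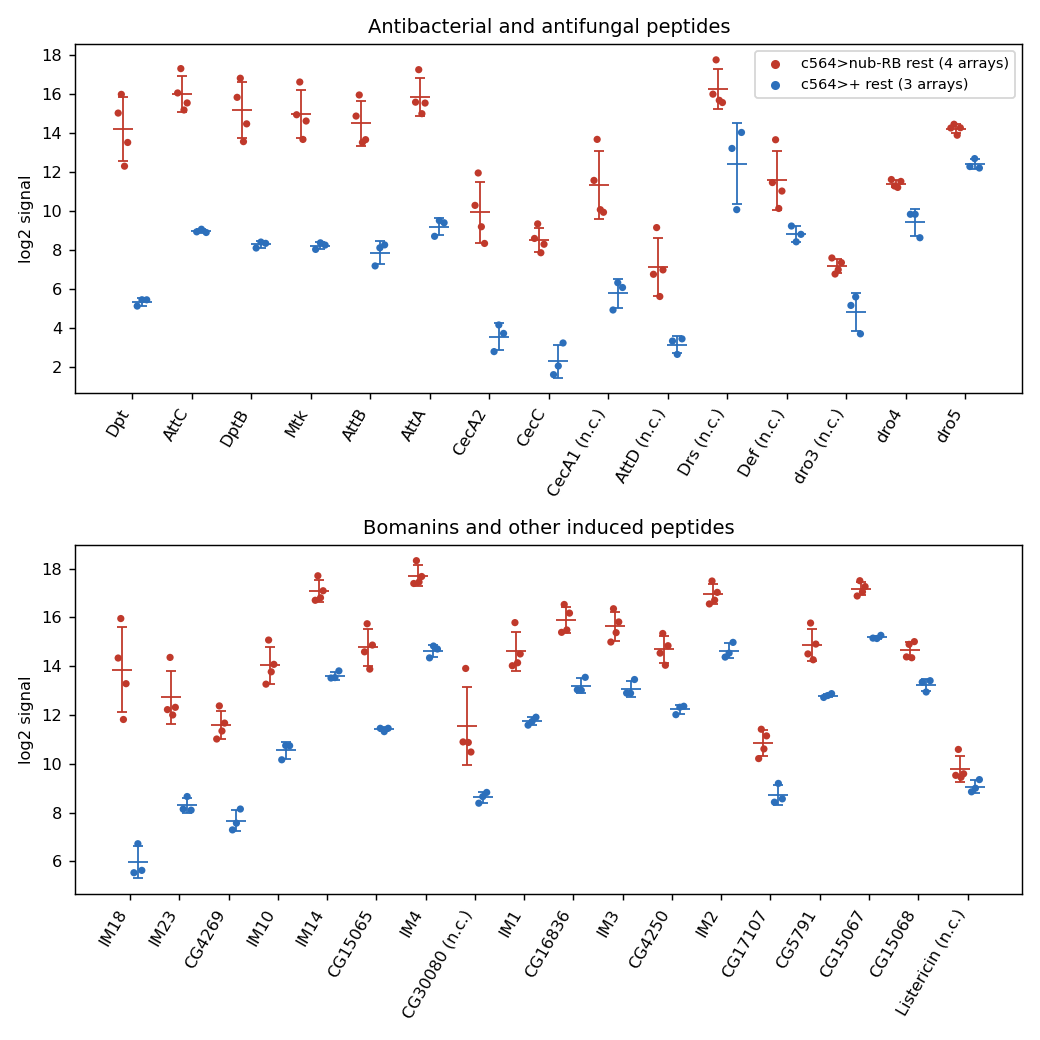
Signals of immune peptide genes on each body array (y axis, log2 signal) in c564>nub-RB and c564>+, with the mean ± SD of each group; genes marked n.c. were not called at a false discovery rate of 1%. The upper panel holds AMP genes and the lower panel bomanins and other immune-induced peptides, and in most genes every c564>nub-RB point lies above every c564>+ point.

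A second list held the bomanins and other immune-induced peptides, and most of its members rose. It is not a single gene family, and its genes were chosen with earlier results of these data known. Of 18 such genes 16 rose and none fell, with a median log2 change of 2.78. Bomanins are short peptides downstream of Toll. IM1 (BomS1) had 16638, 56632, 18092 and 23244 against 3077, 3412 and 3854 (log2 fold change 2.87, SE 0.41, adjusted p = 0.00621), IM2 (BomS2) had 96283, 184638, 107186 and 133719 against 21262, 23809 and 32289 (log2 fold change 2.32, SE 0.25, adjusted p = 0.00224) and CG15067 (BomBc2) had 120627, 186255, 135701 and 157668 against 36461, 36052 and 39450 (log2 fold change 1.99, SE 0.16, adjusted p = 0.000656). In all 3 genes array 2 was the highest, and every c564>nub-RB array lay well above every control array. The largest bomanin change was that of IM23 (BomBc1), with 4783, 21072, 4107 and 5105 against 283, 405 and 275 (log2 fold change 4.42, SE 0.56, adjusted p = 0.00397), and the smallest that of CG15068 (BomS6), with 21378, 30521, 20875 and 33000 against 10452, 7890 and 10876 (log2 fold change 1.42, SE 0.21, adjusted p = 0.00702). The second CG15068 probe changed by 1.39 and did not pass the test. IM23, IM1, CG15067, IM2, IM3, CG16836, CG15065 and CG15068 (BomBc1, BomS1, BomBc2, BomS2, BomS3, BomT2, BomS5 and BomS6) are 8 genes in a row in the RefSeq gene order, and all 8 rose.

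Among the other induced peptides, IM14 (Dso2), a daisho antifungal peptide, had 106788, 214208, 114745 and 139968 against 11734, 11875 and 14364 (log2 fold change 3.46, SE 0.24, adjusted p = 0.000464), and IM4 (Dso1), the other daisho, had 172048, 328946, 179628 and 209811 against 20808, 29124 and 26735 (log2 fold change 3.09, SE 0.25, adjusted p = 0.000661). One of the other 2 IM4 probes changed by 1.54 and did not pass. IM18 was close to background in the control and brightest in array 2, with 20706, 63573, 3613 and 9993 against 46.5, 106 and 49.7 (log2 fold change 7.88, SE 0.90, adjusted p = 0.00272). Its order of arrays was that of the diptericins. CG4269 had 2075, 5314, 2605 and 3262 against 157, 190 and 284 (log2 fold change 3.93, SE 0.34, adjusted p = 0.000963) and IM10 had 9857, 34514, 13995 and 17306 against 1150, 1724 and 1714 (log2 fold change 3.49, SE 0.41, adjusted p = 0.00289). Listericin, an antibacterial peptide, had 739, 1543, 699 and 773 against 463, 513 and 655, and CG30080 had 1910, 15402, 1881 and 1434 against 335, 404 and 455. In both array 2 was far above the other c564>nub-RB arrays, and neither passed (adjusted p = 0.138 and 0.052). Of the 16 risen genes 4 were called without c564>nub-RB array 4 or without c564>+ array 1, 5 without c564>+ array 3, 6 without c564>+ array 4 11 without c564>nub-RB array 3 and 14 without c564>nub-RB array 1 or 2. CG15067, CG4269, IM14 and IM4 were called throughout.

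Recognition proteins bind bacterial peptidoglycan or fungal glucan upstream of Toll and IMD, and 4 of 9 tested rose. PGRP-SB1, an amidase induced through IMD, changed most, with 21034, 28100, 7515 and 14424 against 649, 867 and 437 (log2 fold change 4.67, SE 0.46, adjusted p = 0.0015). GNBP-like3 had 5732, 29736, 7886 and 11119 against 1282, 1266 and 1089 (log2 fold change 3.19, SE 0.52, adjusted p = 0.00955) and lay just inside the threshold. The Toll-side receptors PGRP-SA and PGRP-SD rose as well, PGRP-SD from 124, 114 and 100 to 416, 563, 283 and 428 (log2 fold change 1.87, SE 0.23, adjusted p = 0.00324). PGRP-LF, a negative regulator of IMD, was just outside (log2 1.39, SE 0.24, adjusted p = 0.012), and the IMD receptor PGRP-LC had a log2 change of 0.86 (adjusted p = 0.067). PGRP-SC1b, a peptidoglycan-degrading amidase, had 167, 85.1, 102 and 132 against 1425, 116 and 2228 and overlapped, with control arrays 1 and 4 high and array 3 low, the same control order as the midgut proteases. The number of risen recognition genes was 1 without c564>nub-RB array 4 and without any 1 of the control arrays, 2 without c564>nub-RB array 3 and 3 or 4 without the others, and PGRP-SB1 was called in all of these. Without c564>+ array 3, PGRP-SC1b was called lower.

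Of the extracellular Toll cascade, the proteases that cleave the ligand Spatzle and the serpins that hold them back, 2 of 6 genes rose, with a median of 1.53. SPE, the Spatzle-processing enzyme, had 12233, 19146, 10966 and 16316 against 5010, 4554 and 4868 (log2 fold change 1.57, SE 0.20, adjusted p = 0.00402), and the serpin Spn42Dd had 6445, 11940, 7165 and 10116 against 2838, 2926 and 3476 (log2 fold change 1.49, SE 0.23, adjusted p = 0.00776), while its other probe did not pass. The serpin nec (necrotic), which blocks the Toll-activating cascade, had 27340, 65613, 36782 and 46341 against 15774, 14020 and 18945 and did not pass (adjusted p = 0.024), and neither did Spn88Eb, spirit and spheroide. No call of this list held when c564>nub-RB array 4 or any 1 of the 3 control arrays was left out (highest adjusted p = 0.040), 1 held without c564>nub-RB array 2 or 3, and both held without array 1. None of the 13 IMD pathway genes looked for has a symbol in the tables used, so that pathway's components were not analysed here.

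Turandots are secreted stress peptides induced through JAK-STAT, and Diedel is a secreted immune modulator. Diedel had 271, 249, 384 and 695 against 37.3, 82.1 and 60.6 (log2 fold change 2.68, SE 0.41, adjusted p = 0.00779) and TotX had 671, 1616, 1129 and 1713 against 310, 330 and 291 (log2 fold change 1.96, SE 0.32, adjusted p = 0.00972). TotC and TotM had changes of 2.28 and 2.25 but did not pass (adjusted p = 0.03 and 0.014), and array 4 was far above the other c564>nub-RB arrays in both. Here array 4, not array 2, was the highest. TotX kept its call without c564>nub-RB array 1 only and Diedel in none of the 7 cases (highest adjusted p = 0.045), while TotM (A_09_P019556) was called without c564>nub-RB array 4 (adjusted p = 0.00783).

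Among the stress kinase genes, wnd stood out by its small spread. wnd (wallenda), a MAP kinase kinase kinase that feeds JNK signalling in neurons, had 2175, 1993, 1961 and 1927 against 255, 250 and 261 (log2 fold change 2.98, SE 0.09, adjusted p = 5.84e-06). p38c, a p38 MAP kinase, had 1680, 1790, 1141 and 1384 against 383, 344 and 536 (log2 fold change 1.84, SE 0.21, adjusted p = 0.0028) and Mmp1, a matrix metalloproteinase and JNK target, had 511, 720, 545 and 582 against 199, 241 and 309 (log2 fold change 1.25, SE 0.18, adjusted p = 0.00674). puc (puckered), the phosphatase that serves as the usual JNK readout, had 3429, 3288, 4013 and 4271 against 3445, 3867 and 3771, an overlap with a log2 change of 0.01. wnd was called whichever array was left out. The 3 calls of this list became 1 without c564>nub-RB array 4 or c564>+ array 1 or 3, and 2 without c564>nub-RB array 1, 2 or 3. Of the heat shock and oxidative stress genes, 1 of 6 rose, DJ-1alpha (103, 124, 126 and 177 against 44.5, 54.8 and 47.1, log2 fold change 1.41, SE 0.19, adjusted p = 0.00485), but not without c564>nub-RB array 2 or 3 or any 1 of the control arrays (adjusted p up to 0.027). The heat shock genes Hsp70Aa and Hsp70Bbb overlapped.

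The hemocyte genes that could be named had higher signals in the nub-RB bodies. Of 24 hemocyte genes looked for, 14 had a probe with a symbol and 12 were tested. Of these 12, 9 rose and none fell, all 12 had a positive change, and the median was 2.01. Symbols came largely from lists of transcripts changed on these same arrays, so the common direction is no evidence about the unnamed genes. The summed signal of the list was 17631 to 31587 on the c564>nub-RB arrays and 4721 to 7378 on the control arrays. NimC1, the Nimrod phagocytosis receptor of plasmatocytes, had 3115, 3686, 1863 and 2787 against 329, 594 and 565 (log2 fold change 2.53, SE 0.29, adjusted p = 0.00273), and NimC4, a receptor for apoptotic cells, had 1797, 2687, 914 and 1477 against 83.1, 173 and 142 (log2 fold change 3.66, SE 0.39, adjusted p = 0.00219). eater, which binds bacteria, had 2395, 2915, 1756 and 2740 against 326, 683 and 633 (log2 fold change 2.21, SE 0.30, adjusted p = 0.00492). In each of these c564>+ array 1 was the lowest of the control, and array 3 the lowest of c564>nub-RB. The flight muscle genes had their lowest control signals on the same array, and their part in the hemocyte values was not tested.

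Further hemocyte genes followed the same pattern. Hml (Hemolectin), a clotting protein and the usual hemocyte marker, had 6427, 8658, 5616 and 9718 against 1392, 1993 and 2086 (log2 fold change 2.05, SE 0.24, adjusted p = 0.00273), although 1 of its other 2 probes did not pass. He (Hemese), a surface glycoprotein, was dim, with 136, 166, 111 and 132 against 18.5, 30.6 and 38.3 (log2 fold change 2.27, SE 0.26, adjusted p = 0.00263). The scavenger receptors Sr-CI and Sr-CIV and the Nimrods NimC2 and NimB1 rose by 1.38 to 2.85. NimB4, NimB5 and Pxn (Peroxidasin), an extracellular matrix peroxidase, had changes of 1.60, 1.37 and 1.28 and did not pass (adjusted p = 0.011, 0.014 and 0.026). He, NimC1, the cytochrome Cyp28a5 and NimC2 follow one another in the RefSeq gene order. The 9 calls depended on the arrays used. They numbered 1 without c564>+ array 4, 2 without c564>nub-RB array 4, 3 and 4 without c564>+ arrays 3 and 1, 6 without c564>nub-RB array 1 or 2 and 8 without array 3, and no gene of the list was called in all 7 cases (highest adjusted p = 0.025).

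C-type lectins, secreted or membrane proteins that bind sugars, were few with a symbol but all 4 rose, with a median of 2.61. lectin-37Da, which binds galactose and takes part in encapsulation, had 1301, 1811, 1436 and 1374 against 79.7, 32.6 and 99.8 (log2 fold change 4.52, SE 0.37, adjusted p = 0.000696), and lectin-28C had 7604, 14196, 7030 and 12862 against 1150, 1216 and 1263 (log2 fold change 3.04, SE 0.27, adjusted p = 0.000994). lectin-24Db and lectin-33A rose by 2.18 and 2.11. lectin-37Da and lectin-28C were called whichever array was left out, lectin-24Db in all cases but that without c564>+ array 4 (adjusted p = 0.010), and lectin-33A in none of them (adjusted p up to 0.029).

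Of 9 melanization and clotting genes 4 rose and 1 fell. The prophenoloxidases, zymogens of the enzymes that make melanin and products of crystal cells, a hemocyte type, moved together. PPO1 had 21237, 16971, 13226 and 19043 against 1310, 3239 and 2328 (log2 fold change 3.02, SE 0.31, adjusted p = 0.00186) and PPO2 had 13935, 18894, 10352 and 16044 against 1121, 2895 and 2746 (log2 fold change 2.80, SE 0.37, adjusted p = 0.00453). Pu (Punch, GTP cyclohydrolase), the first enzyme of biopterin synthesis, had 6067, 8519, 5212 and 7400 against 2303, 2851 and 3000 (log2 fold change 1.31, SE 0.19, adjusted p = 0.00661). The gene that fell was Dhpr, described above, which acts in the same cofactor pathway as Pu. ple (tyrosine hydroxylase), which makes DOPA, had 1249, 4696, 3443 and 5184 against 1061, 780 and 955 and did not pass (adjusted p = 0.05), with array 1 close to the control. PPO1 and Dhpr stayed called whichever array was left out. Of the 4 genes that rose, Hml among them, 1 was called without c564>+ array 4, 2 without c564>nub-RB array 1, 2 or 4 or c564>+ array 1 or 3, and all 4 without c564>nub-RB array 3. ple was called without c564>nub-RB array 1 (adjusted p = 0.00281).

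**Figure D4:**
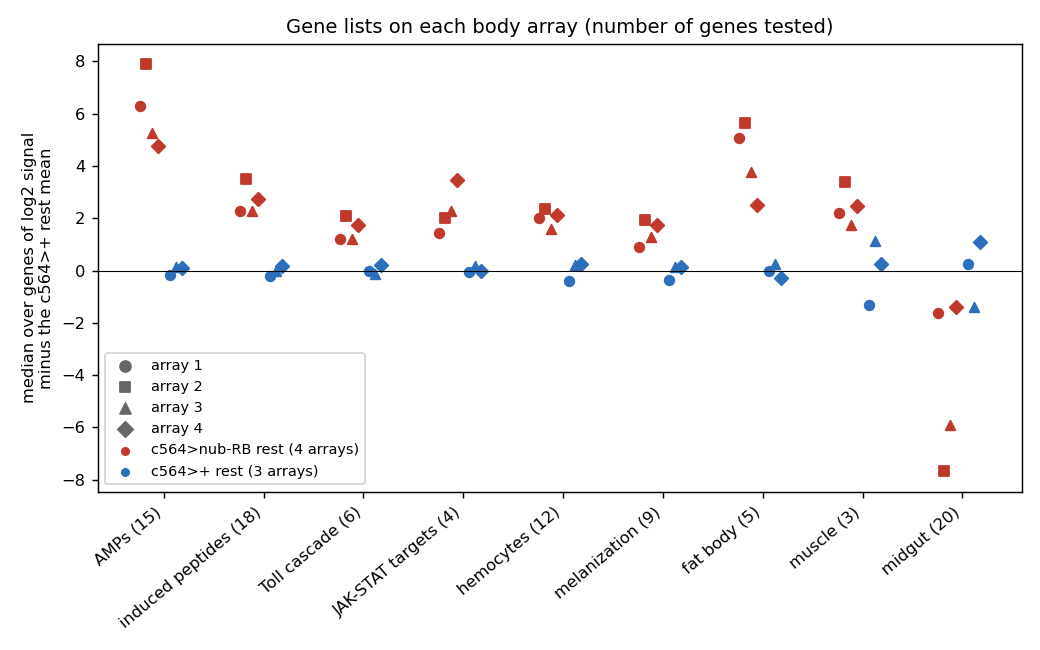
Median over the genes of each list of the log2 signal minus the c564>+ mean (y axis) on every body array, for 9 lists with the number of genes beside each name. AMP genes have the highest median of the 9 lists in all 4 c564>nub-RB arrays, with array 2 the highest, and the midgut list is far below 0 in arrays 2 and 3 only.

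Fat body products changed unevenly. Lsp1gamma and Lsp1beta are larval serum proteins, storage hexamers made by the larval fat body before metamorphosis. Lsp1gamma had 3588, 2231, 925 and 894 against 39.4, 29.7 and 75.5 (log2 fold change 5.17, SE 0.57, adjusted p = 0.00224) and Lsp1beta had 3798, 6920, 1310 and 743 against 106, 114 and 57.9 (log2 fold change 4.66, SE 0.75, adjusted p = 0.00961). Arrays 1 and 2 were well above arrays 3 and 4 in both. Lsp2 had 4342, 17828, 1780 and 733 against 83.2, 381 and 69.6 and did not pass (adjusted p = 0.037), and Lsp1alpha and Fbp2, further larval fat body products, were below the signal threshold. Tsf1 (Transferrin 1), which carries iron in the hemolymph, had 141591, 237796, 116860 and 140309 against 28184, 33876 and 23280 (log2 fold change 2.45, SE 0.26, adjusted p = 0.00189), while its other 3 probes, with changes of 2.63 to 2.75, did not pass. to (takeout), a secreted juvenile hormone-binding type protein, was the member with a negative change, with 637, 369, 494 and 227 against 1337, 1139 and 1532 (log2 -1.72, adjusted p = 0.019). Of 5 fat body genes 3 rose. None did without c564>+ array 1, 1 did without c564>+ array 3 or 4, and 2 or 3 did without 1 of the c564>nub-RB arrays. Tsf3, another transferrin, had 564, 835, 638 and 717 against 104, 155 and 129 (log2 fold change 2.42, SE 0.18, adjusted p = 0.000556).

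Cytochromes P450, oxidative enzymes of hormone and toxin metabolism, were called for 5 of 9 named genes. Cyp313a1 had 5849, 10136, 6335 and 5457 against 764, 876 and 914 (log2 fold change 2.99, SE 0.22, adjusted p = 0.000509) and Cyp6a19 had 1631, 1165, 1762 and 1005 against 238, 301 and 192 (log2 fold change 2.50, SE 0.24, adjusted p = 0.00146), and both were called whichever array was left out. Cyp304a1, Cyp301a1 and Cyp28a5 rose by 2.19, 1.67 and 1.5, and each was called in only 1 of the 7 fits with an array left out (adjusted p up to 0.037 in the others). Cyp6a2, which metabolizes insecticides, had 717, 1588, 960 and 1396 against 231, 345 and 364 and lay at the edge (log2 1.85, adjusted p = 0.01). Of 8 cytosolic ribosomal protein genes, 1 rose. RpL37a (RpL37-1) had 9975, 9496, 9440 and 12193 against 4010, 3257 and 3464 (log2 fold change 1.52, SE 0.13, adjusted p = 0.000911), against a median of 0.35 over the 8, while its other probe changed by 0.78 and did not pass. In contrast, RpS23, on its brightest probe, had 303506, 315389, 307765 and 313170 against 294636, 297609 and 290743 (log2 0.07, adjusted p = 0.537). Another RpS23 probe fell, as given below.

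The study sorted its changed immune genes into functional groups. These lists were chosen on the same arrays and are no independent evidence of a direction, but they name further genes. Of the 15 signalling and transcription factor genes 9 rose and 1, mthl8, fell. mthl2, a paralog of mthl8, went the other way, with 1046, 1420, 719 and 980 against 119, 192 and 160 (log2 fold change 2.71, SE 0.26, adjusted p = 0.00128). Pvf2, a PDGF/VEGF-like ligand that promotes hemocyte proliferation, had 308, 460, 305 and 386 against 80.3, 86.7 and 112 (log2 fold change 1.97, SE 0.19, adjusted p = 0.00139), Ser (Serrate), a Notch ligand, had 112, 172, 100 and 144 against 23, 38.9 and 37 (log2 fold change 2.01, SE 0.25, adjusted p = 0.00394) and Hand, a factor of heart and blood cell lineages, had 659, 764, 486 and 577 against 137, 215 and 162 (log2 fold change 1.86, SE 0.21, adjusted p = 0.00237). pnr (pannier), a GATA factor, rose by 1.77 and Arc1, a capsid-like protein of neurons, by 1.90. Of these, Pvf2, Arc1, mthl2 and mthl8 kept their call whichever array was left out. The 9 risen genes became 3 without c564>nub-RB array 4, 4 without any 1 of the control arrays and 7 or 8 without the other c564>nub-RB arrays.

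In the study's other groups, Sid (Stress induced DNase) had 459, 1527, 763 and 1028 against 25, 27.8 and 25.5 (log2 fold change 5.05, SE 0.37, adjusted p = 0.000506), CG13905 (mat) had 10074, 15489, 12170 and 9063 against 513, 527 and 1034 (log2 fold change 4.13, SE 0.30, adjusted p = 0.000466) and CG42807 had 4662, 5459, 5029 and 5201 against 584, 630 and 834 (log2 fold change 2.91, SE 0.14, adjusted p = 6.86e-05). The spread of CG42807 was among the smallest of the immune-induced genes, and Sid held a near constant level in the control. pst (pastrel), which restricts viral infection, had 12077, 18372, 16553 and 19136 against 1725, 3926 and 2927 (log2 fold change 2.59, SE 0.29, adjusted p = 0.00263), and 1 of its other 2 probes did not pass. By group, 12 of 21 AMP, iron and lysozyme genes, 9 of 16 phagocytosis genes, 17 of 21 immune-induced peptides, 4 of 7 melanization genes, 4 of 6 recognition genes, 7 of 21 induced genes of unknown function, 13 of 28 other immune-regulated genes, 2 of 10 stress genes and both virus-induced genes rose. One gene each fell among the AMP group (LysP), the induced peptides (CG5773), melanization (Dhpr) and the other immune-regulated genes (Aats-asp). A further list sets immune genes in these bodies beside those in nub1 mutants. Of its 62 tested genes 32 rose and none fell. Of the 32, 14, 18 and 15 were called without c564>+ arrays 1, 3 and 4, 18 without c564>nub-RB array 4 and 25 to 28 without the others, and 13 genes were called in all 7 cases.

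Proteolysis genes changed in both directions. Of the 112 genes of the study's proteolysis list that were tested, 20 rose, 1 fell and 63 had a negative change. Of all tested probes with a symbol, 40.9% rose and 2.7% fell, so rises were less frequent in this list. The study chose the list on these same arrays. Besides CG6639 and CG18563, CG18557 had 192, 220, 187 and 216 against 9.22, 4.42 and 6.29 (log2 fold change 5.0, SE 0.23, adjusted p = 5.74e-05), CG14642 had 305, 502, 321 and 386 against 55.3, 65.8 and 81.4 (log2 fold change 2.48, SE 0.21, adjusted p = 0.000879) and CG31704 had 3563, 5208, 3328 and 5416 against 679, 789 and 887 (log2 fold change 2.45, SE 0.21, adjusted p = 0.000903). These 3, with CG11670 (log2 1.59), were called whichever array was left out. The 1 that fell, CG30371, had 1983, 1670, 2483 and 2714 against 8706, 6686 and 10102 (log2 fold change -1.95, SE 0.21, adjusted p = 0.00224) and gave the same on its second probe. Of the 20 midgut trypsin and Jonah genes none was called, with a median of -4.04 and SEs of 1.06 to 2.49. Jon25Biii had 5910, 36.4, 98.1 and 4333 against 37110, 10260 and 71033 (adjusted p = 0.09) and thetaTry had 210, 2.23, 2.51 and 356 against 1081, 13.6 and 1674 (adjusted p = 0.354). In most of them c564>nub-RB arrays 2 and 3 were orders of magnitude below arrays 1 and 4. Without c564>+ array 3, 2 midgut genes and 12 genes of the proteolysis list were called lower, and of its 20 risen genes 4 were called without c564>+ array 1, 5 without c564>+ array 4, 7 without c564>nub-RB array 4, 9 without c564>+ array 3 and 12 to 17 without the other c564>nub-RB arrays. CG30371 lost its call without c564>+ array 1 or 4. On the Pdm2-RB arrays, which took no part in this comparison, 602 of the tested probes were at least 16-fold brighter in gut than in body. Of these 602 probes, 41 rose and 1 fell in c564>nub-RB bodies, against 3.40% and 0.910% of all 16492 probes tested. The part of gut tissue in the body samples in these values was not tested.

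The fallen genes with a symbol were named after their values had been seen. The probes of Rala, a Ras-like small GTPase, disagreed in direction. Probe A_09_P052086 had 4358, 4084, 4905 and 3716 against 23760, 26848 and 26569 (log2 fold change -2.60, SE 0.12, adjusted p = 5.59e-05), A_09_P181490 gave -2.55, and A_09_P030671 was called higher, at 1.03 (SE 0.13, adjusted p = 0.00402). CG18327 had 145, 155, 91.3 and 92.5 against 1142, 1009 and 1530 (log2 fold change -3.36, SE 0.25, adjusted p = 0.000514), while its other probe changed by -1.16 and did not pass (adjusted p = 0.023). CG42673 had 81.1, 72.6, 81.7 and 110 against 562, 574 and 792 (log2 fold change -2.89, SE 0.19, adjusted p = 0.000322). LysP, a lysozyme, had 1208, 2043, 2017 and 2618 against 10098, 7515 and 11217 (log2 fold change -2.32, SE 0.27, adjusted p = 0.00294) and CG1678 had 47467, 87053, 73873 and 91242 against 269898, 273841 and 285765 (log2 fold change -1.93, SE 0.23, adjusted p = 0.00294). CG5773 and CG33109 fell by 2.10 and 1.46, and the other CG33109 probe changed by 0.63 without passing. Top1 (topoisomerase 1) had 122, 128, 129 and 148 against 367, 356 and 311 (log2 fold change -1.39, SE 0.11, adjusted p = 0.00066), CG4335, named Tmlh in RefSeq, fell by 1.19 and 1.29 on its 2 probes, and a second probe of RpS23 had 252, 194, 275 and 258 against 676, 743 and 532 (log2 fold change -1.41, SE 0.17, adjusted p = 0.00307), unlike the RpS23 probe above. The noncoding lncRNA:CR42862 and the oocyte gene fs(1)K10 fell by less than 2-fold, the former on 1 of 5 probes, with fs(1)K10 at 4703, 4168, 4347 and 4116 against 6819, 6202 and 6889.

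The gut arrays of the same genotypes took no part in the body comparison. Guts and bodies were separated by dissection and may come from the same flies, and all arrays were normalized together, so the tissues are not independent of each other. Of the 560 probes that rose in the body, 488 passed the signal threshold in gut, and 348 of these (71.3%) had a positive change there against 54.5% of all 15237 probes tested in both tissues. Of the 150 that fell, 117 were tested in gut and 86 (73.5%) had a negative change, against 45.5%. The median changes in gut were 0.36 and -0.44. They cannot be set against the body medians, since the probes were chosen by their call in the body. Few were called in gut, where only 83 of 16699 probes passed at 1% (0.497%). Of the risen probes 27 were among them and of the fallen ones 13, none of them in the opposite direction.

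Several genes from the ends of the distribution were called in gut as well. On its brighter probe Oat was at least 519-fold higher in gut (adjusted p = 9.33e-05), and Su(P) was at least 893-fold lower (adjusted p = 2.06e-05). These are lower bounds, as a group of each was at background on all gut arrays. The probes of Oat disagreed about the size of its change in the body, as given above. Aats-asp changed by -7.26 in gut (SE 0.19, adjusted p = 0.000125), Dhpr by -6.10 in gut (SE 0.49, adjusted p = 0.00643) and wnd by 2.56 in gut (SE 0.18, adjusted p = 0.00408). On the probes whose signals are given above, Rala changed by -2.89 and CG18327 by -3.93 in gut. AMP genes with large changes in the body had positive changes in gut. The change of AttA was 5.41 in gut (SE 0.57, adjusted p = 0.013), that of AttC 4.64 in gut (SE 0.50, adjusted p = 0.015) and that of Dpt 4.04 in gut (SE 0.70, adjusted p = 0.052), none of which passed the threshold of 1%. For Dpt the body exceeded the gut by 4.82 (SE 1.19, adjusted p = 0.034), which did not pass either.

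The difference between the tissues was tested itself, as an interaction of genotype and tissue over 13 arrays. It was called for 149 of 17954 probes (0.830%), 101 of them with the more positive change in the body. Among these were 67 of the 560 risen and 20 of the 150 fallen probes. Those were chosen on body arrays that also enter this test, so their shares cannot be set against that of all probes. The 149 calls became 694 without c564>nub-RB gut array 1 and 21 to 116 without any other single array, lowest without c564>+ rest array 1. Of 936 probes with a symbol 56 were called (6.0%). Of the list genes, 3 of 12 hemocyte genes, 1 of 4 lectins, 1 of 9 melanization genes and 0 of 15 AMP genes were called. NimC4 differed by 7.56 (SE 1.16, adjusted p = 0.00862), with a gut change of -3.90, PPO1 by 3.80 (SE 0.50, adjusted p = 0.00452), NimC1 by 2.74 (SE 0.44, adjusted p = 0.00967), lectin-24Db by 2.93 (SE 0.34, adjusted p = 0.00241) and NimB1 by 1.78 (SE 0.25, adjusted p = 0.00531). In these genes the gut change was negative without passing the test. Sr-CI, on its second probe, differed by 2.31 (SE 0.33, adjusted p = 0.00572). Among the Toll-side genes SPE differed by 1.60 (SE 0.26, adjusted p = 0.00967) and CG15067 by 1.37 (SE 0.22, adjusted p = 0.00923), and among the induced peptides CG4269 by 3.0 (SE 0.43, adjusted p = 0.00612). The proteases CG14642 and CG30371 differed by 2.28 (SE 0.33, adjusted p = 0.00683) and -2.02 (SE 0.29, adjusted p = 0.00572), and CG30371 had a gut change of 0.07.

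Other genes changed more in gut than in the body. CG8768 fell by 6.32 in gut on probe A_09_P007031, against 4.44 in the body. mthl8 was at least 75.8-fold lower in gut and, as given above, at least 16.6-fold lower in the body. It was at background on all c564>nub-RB arrays of both tissues, so the size of its difference was not measured. The second probe of RpS23 and probe A_09_P069551 of CG4335, which fell in the body by 1.41 and 1.19, changed by -3.58 and -3.50 in gut. These differences of 2.17 and 2.31 were called as well. The brightest RpS23 probe did not share this fall, with mean log2 signals of 18.04 in c564>nub-RB gut and 18.05 in c564>+ gut. CG15199 and CG17264 rose in the body by 1.54 and 1.74 and had gut changes of 5.04 and 3.24. The 6 probes without a symbol among the 12 lowest went the other way, with the more negative change in the body. They were below the signal threshold in gut, and for all 6 the interaction was called, at -8.19 to -3.37. A_09_P122225, for example, had mean log2 signals of 6.32 in c564>nub-RB gut and 6.05 in c564>+ gut. Of these, A_09_P016666 and A_09_P022576 were at background on all control gut arrays, so their differences are not measured sizes. Midgut genes had gut changes close to 0, such as 0.26 for alphaTry and 0.00 for Jon25Biii.

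**Figure D5:**
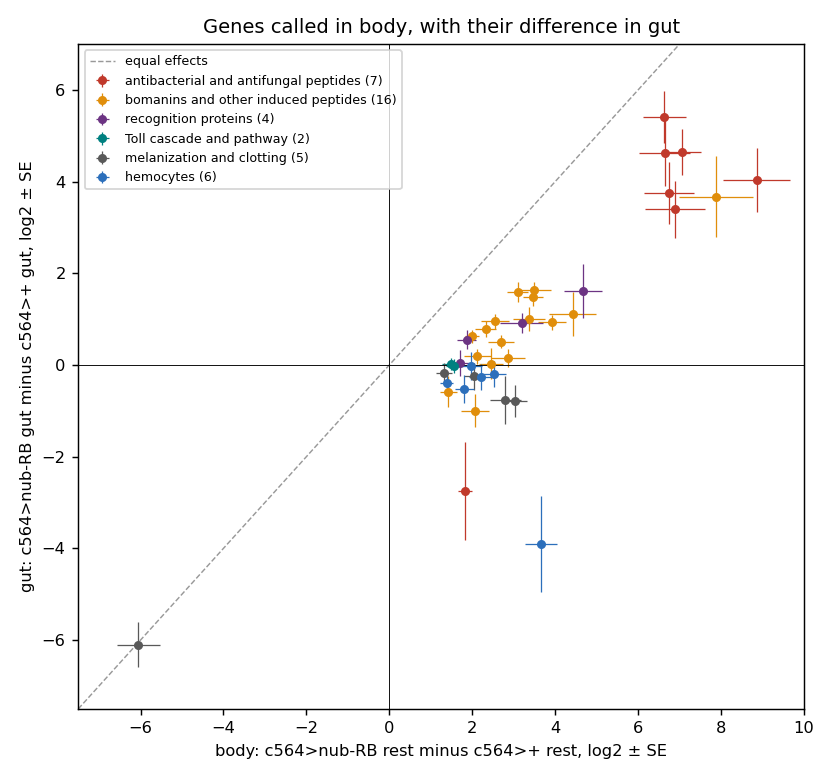
Change in the body (x axis) against change in gut (y axis), both as difference of mean log2 signals ± SE, for genes of the immune lists that were called in the body and tested in gut. The dashed line marks equal changes. The genes were chosen by their call in the body, which places them towards larger body changes, and all lie below the line, with the hemocyte and melanization genes near or under 0 in gut.

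The c564>Pdm2-RB bodies share the 3 control arrays with the comparison above, so its values are given side by side and are not independent of it. On its brighter probe Oat was 12.29 in c564>nub-RB and 11.99 (SE 0.38, adjusted p = 5.92e-05) in c564>Pdm2-RB. Su(P), at background on all arrays of both transgenes, was at least 601-fold and at least 929-fold lower. Probe A_09_P006821 was 12.29 and 13.78 (SE 0.47, adjusted p = 6.80e-05), CG31813 8.57 and 10.80 (SE 0.32, adjusted p = 5.73e-05), and wnd 2.98 and 3.20 (SE 0.10, adjusted p = 5.73e-05). In these genes both transgenes stood far from the shared control. Aats-asp was -7.53 and -0.13 (SE 0.13, adjusted p = 0.624), CG8768 -4.80 and 0.16 (SE 0.18, adjusted p = 0.665), and Dhpr -6.06 and -0.96 (SE 1.94, adjusted p = 0.826), while mthl8, at least 16.6-fold lower in c564>nub-RB, was 0.47 (SE 0.15, adjusted p = 0.185) in c564>Pdm2-RB. Dpt was 8.86 and 8.43 (SE 1.25, adjusted p = 0.024), Mtk 6.74 and 4.47 (SE 0.98, adjusted p = 0.078), IM14 3.46 and 1.21 (SE 0.27, adjusted p = 0.08), and NimC1 2.53 and 1.13 (SE 0.31, adjusted p = 0.135). The difference between the transgenes was not tested.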

How the data were processed

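RNA of each pool of flies was labelled with Cy3 and hybridized to a 1-colour Agilent array of 43602 spots. Per the file headers and the study's methods, Agilent Feature Extraction 10.7.3.1 reduced each spot to a background-subtracted intensity, and the authors imported these signals to Partek and quantile-normalized them over 19 arrays. The deposited table holds 1 linear intensity per probe and array and was used here on the log2 scale. The scanner intensities, normalized anew in the same way, differed from it by a median of 0.000265 on the log2 scale. The scanner's quality marks were used for the calls of probes well above background and to leave out uneven spots in the renewed normalization. No column of another series was present, and the authors' own fold changes in the supplementary tables served only as a key to match symbols, within a relative tolerance of 1e-05, while their p-values were not used.

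Groups were fitted with limma 3.58.1 (lmFit and eBayes) in R 4.3.3, two-sided, with Benjamini-Hochberg adjustment over all probes tested. The body comparison held its 7 arrays only, and the interaction held 13. Tables were made with Python 3.11.15, pandas 2.3.3 and numpy 2.4.6. The fit was tested on simulated data first. With 4 against 3 arrays the number of arrays limits the precision, and p-values measure the spread between these pools. Symbols of 1441 probes came from the study's supplementary lists (the first 996 rows of the largest were read) and from RefSeq accessions, and 1438 were paired with a current RefSeq symbol.

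The members and gene lists were chosen with earlier results of these data known. Named are nub, the 12 called probes with the highest and the 12 with the lowest change, and members of the lists and of the study's functional groups, with the probe of highest mean log2 signal for each gene. Where a probe was not well above background on any array of a group, the fold is a lower bound: the mean of the brighter group was set against the mean of, per array of the dimmer group, the higher of the lowest signal well above background and the own signal of the probe. Alternatives covered the scaling, background correction, signal threshold, arrays in the fit, variance model, blocks for slide, scan day and replicate number, the false discovery rate and leaving out each array.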

Additional observations from a re-analysis of the deposited data

Results flagged for a closer look

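Of 248 named probes, 7 had a c564>nub-RB array that stood apart from the other 3 of its group by Dixon's test at 95%, a rule by which chance alone marks about 5% of groups. Array 2 was the highest for IM23 (BomBc1), at 21072, for CG30080, at 15402, and for Listericin, at 1543, and the lowest for CG12780, a glucan-binding protein relative, at 136. Array 4 was the highest for the midgut protease iotaTry, at 83.6, array 1 the lowest for probe A_09_P003231, at 29.8, and array 3 the lowest for lectin-33A, at 1263. Of these, IM23, A_09_P003231 and lectin-33A were called, and in all 3 the groups did not overlap.

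For 19 named probes the change in the body differed from that in gut by the interaction test at a false discovery rate of 1%. Among the immune genes the change in the body was the more positive one. The differences, body minus gut on the log2 scale, were 1.37 for CG15067, 3.0 for CG4269, 1.60 for SPE, 3.80 for PPO1, 2.74 for NimC1, 7.56 for NimC4, 1.78 for NimB1, 2.31 for Sr-CI (probe A_09_P030156), 1.91 for CG42807 and 2.93 for lectin-24Db. CG5493 differed by 4.20, with a body change of 0.73 that was not called and a gut change of -3.47 that was not called either. For CG8768 (probe A_09_P007031), which fell in both tissues, the difference was 1.89. The fitted difference of mthl8 was 2.33, but this gene was at background on all c564>nub-RB arrays of both tissues, so that the size was not measured. The 6 unnamed probes among the lowest of the body had negative differences, -4.68 for A_09_P033716, -8.19 for A_09_P016666, -5.35 for A_09_P122225, -6.37 for A_09_P022576, -5.16 for A_09_P003231 and -3.37 for A_09_P051991. The signal threshold kept these 6 out of the gut comparison itself, and A_09_P016666 and A_09_P022576 were at background on all control gut arrays. No explanation of these differences was tested.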

How the results depend on the processing

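The 710 calls became 712 with the scanner signals normalized anew, 545 with scaling to the 75th percentile, 716 with normexp background correction, 709 with normalization over the 7 body arrays, 654 with a threshold of 300, 774 with a filter on probes well above background, 947 with the 3 body groups in the fit, 864 with an intensity trend and robust variance and 587 with a 2-fold minimum. They became 386 without a signal threshold (more probes tested), 1134 with all 6 groups in the fit, 86 with the methods' t-test per probe, 1177 with its pooled standard deviation, 1076 with scan day as a block, 1535 with slide as a random block and 2255 at a false discovery rate of 5%. The share of higher calls moved from 78.9% to 64.0% with the t-test per probe, 66.9% with the pooled standard deviation, 68.4% with the slide block and 62.0% at 5%. The count of 54 called list genes became 31 without a signal threshold and 2 and 105 with the forms of the t-test. Chosen after seeing the data were the arrays of the second scan day only, with which 106 probes and 15 list genes were called, and c564>nub-RB arrays 1 and 4 only, those with most midgut transcripts, with 157 and 23. Leaving out 1 array gave 211 to 545 calls and 20 to 44 list genes. With a replicate block 80 probes, 13 list genes and 18 interaction probes were called; deviations of arrays with the same number correlated by only 0.085, 0.267 and 0.077, so the numbers were not taken to pair the samples. The 149 interaction calls became 41 without a signal threshold, 1491 at 5% and 21 to 694 with 1 array left out. The cause of these shifts was not tested where the setting itself does not give it. Of the 248 named probes tested, 15 were called in all 26 settings, among them Oat, Su(P), Aats-asp, AttC and wnd, and mthl8 in the 25 in which it was tested. In 6418 values over all settings, 5255 kept direction and side of the threshold, 823 were no longer called, 316 became called and 24 changed sign, all in genes that were not called. These were puc (0.01, -0.05 to 0.08 with 1 array left out), CG2736 (-0.14, -0.30 to 0.04), RpS14b (0.07, -0.04 to 0.18), CG15282 (0.65, -0.31 to 1.36), LysC (A_09_P141390) (-0.57, -1.83 to 0.21, and 0.04 with normexp, 0.47 with the slide block, 0.20 with the replicate block, 0.39 on the second scan day and 1.75 with arrays 1 and 4), CG10912 (-1.18, -2.40 to 0.56, and 0.21, 0.56, 0.91 and 1.82 with the slide block, the replicate block, the second scan day and arrays 1 and 4) and Cpr49Ag (0.11, -0.13 to 0.24, and -0.03 with the replicate block and -0.06 with arrays 1 and 4).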

Other observations

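Many of the risen genes with a symbol lie outside the lists, and a few whose control signal was well measured are given here, picked after their values had been seen. CG4757 rose by 6.21 on the log2 scale (SE 0.57) and CG8568 by 5.02 (SE 0.15). CREG, a secreted glycoprotein, rose by 3.18 (SE 0.12) and shf, a secreted factor of Hedgehog signalling, by 2.60 (SE 0.27). The predicted protease inhibitor gene CG16713 rose by 2.31 and 2.82 on its probes, and CG16704, of the same kind, by 2.78 and 2.81.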
